A study of Arabidopsis thaliana with 6 samples.

Results

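The genes described here belong to the families that build, loosen and trim the plant cell wall, together with a family of secreted proteases: expansins (EXPA, EXPB and the expansin-like EXLA and EXLB), xyloglucan endotransglucosylase/hydrolases (XTH), cellulose synthase-like glycan synthases (CSL), a pectin methylesterase (PME) and subtilases (SBT). They were taken as every probe set whose single gene symbol in the array annotation carries such a family name followed by a number, or by a letter and a number. This gave 45 genes with 1 probe set each, out of 13355 genes that the annotation names singly. A gene is called measured below only where the annotation names a probe set for it alone. Other genes may still be on the arrays, among the 8730 probe sets left unnamed or the 503 given to several genes. The rule also allowed cellulose synthases (CESA), fasciclin-like arabinogalactan proteins (FLA) and pectin methylesterase inhibitors, but the annotation named 0 single-gene probe sets for them, so these were not analysed here.

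The arrays were Affymetrix arrays of the aerial part of Arabidopsis thaliana plants 4 weeks old, with 3 arrays for wild type and 3 for plants labelled msh1 albino mutant, and each array was a biological replicate. The nuclear gene MSH1 encodes a relative of the bacterial mismatch repair protein MutS that works in mitochondria and plastids and keeps their genomes from recombining. No label names the msh1 allele or the plants' accession. Plants of both groups grew on MS medium with 1.5% sucrose under 12 h of light a day at 24 °C. Every mutant array came from albino plants, so genotype and albinism cannot be told apart in any difference below.

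Growing plant cells are held by cellulose microfibrils that are embedded in xyloglucan and pectin. Expansins loosen this network without cutting it, most actively at the acid pH that plasma membrane proton pumps create, and XTH enzymes cut xyloglucan chains and join them to others. Many CSL proteins make backbones of non-cellulosic wall glycans in the Golgi or at the cell surface. Pectin methylesterases remove methyl groups from homogalacturonan in the wall. Subtilases cleave proteins and peptide hormones in the apoplast, the space outside the plasma membrane. In leaves these families act during expansion, and individual members respond to hormones, touch, cold and pathogens.

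All levels below are RMA values, which are background-corrected, normalized signals on the log2 scale, and a difference of 1 is a 2-fold change. Over the tested probe sets, the 75th percentile lay between 7.75 and 7.94 in the 6 arrays, and the lowest correlation between arrays of the same group was r = 0.989 (across probe sets, which are not independent replicates). The number of arrays limits the precision, with a median SE of 0.157 for a difference of a wall gene. Probe sets differ in brightness, so values of different genes do not rank their transcripts. A group mean under 4.01, the 25th percentile of all probe-set means, is called low here. The files hold no detection call, so a difference against a low level may be a lower bound. Of the 45 genes, 10 had an overall mean under 4.01.

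The measured leaf mesophyll markers were lower in the albino plants. Of 9 on the list 5 were measured: RCA, GDCH, PRK, LHCB4.1 and LHCB4.2. All 5 fell (limma adjusted p under 0.05, median difference -0.70), where 7.44% of all tested probe sets fell. Their summed linear signal was 32349 to 33936 in wild type and 18525 to 22540 in albino plants. The root and hypocotyl enzyme gene BGLU23 (PYK10), the only measured marker of 6 for root, stood at 8.58, 7.10 and 7.90 in wild type and 9.65, 9.71 and 8.38 in albino plants. Its difference of 1.39 did not pass (limma adjusted p = 0.0911). SAG29, the only measured marker of 3 for senescence, had a difference of -1.06 (limma adjusted p = 0.104). No root hair, flower and pollen, xylem, dividing-cell or epidermis marker on the lists used was named singly in the annotation. The part of these markers' tissues in the differences below was not tested, and in such bulk samples fewer cells of a type and less RNA per cell cannot be told apart.

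The comparison asks which wall genes differ between albino msh1 plants and wild type. The genes that rose in the albino plants were XTH18, SBT3.5 and CSLD2, and those that fell were EXPA8, ATSBT5.2 and XTH32. XTH18 had the widest difference of the 45 genes, 2.62 ± 0.53 on the log2 scale (SE, 3 arrays a group), and EXPA8 the deepest fall, -1.59 ± 0.29. The 6 genes were 13.3% of the 45. Of all 22746 probe sets, 11.2% passed the same test (limma, Benjamini-Hochberg adjusted p under 0.05), so the share of wall genes that passed lay near that of the whole array. The 3 genes that rose were 6.67% of the 45, where 3.75% of all probe sets rose, and the 3 that fell were 6.67%, where 7.44% of all probe sets fell. The median difference was 0.02 over the wall genes and -0.04 over all probe sets, and the median size of a difference was 0.17 and 0.15.

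These counts changed when single arrays were left out, and a fit on fewer arrays also has less power. Without wild-type replicate 2 only SBT3.5 passed, and 3.74% of all probe sets did. In that fit XTH18 differed by 2.54, CSLD2 by 0.72, EXPA8 by -1.56, ATSBT5.2 by -0.82 and XTH32 by -0.60. Without wild-type replicate 3, SBT3.5, CSLD2 and EXPA8 passed, and 5.52% of all probe sets did. With the arrays aligned on reference genes 4 wall genes rose and 2 fell, where 1363 of all probe sets rose and 919 fell (10% called). On spiked controls 2 wall genes rose and 1 fell, where 581 of all probe sets rose and 572 fell (5.07% called). The excess of falls over rises among the calls as deposited was therefore not seen under these scalings. Spiked controls gave every probe set the same SE, 0.27. The median difference of all probe sets was -0.06 with spiked controls and 0.06 with reference genes, against -0.04 as deposited. The sign of the 6 called genes was the same in all 12 alternatives that can change a difference, among the 19 run. Where arrays were left out or weighted this was fixed in advance, because the groups of these genes do not overlap. Only the 5 other scalings could have changed a sign.

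**Figure D1:**
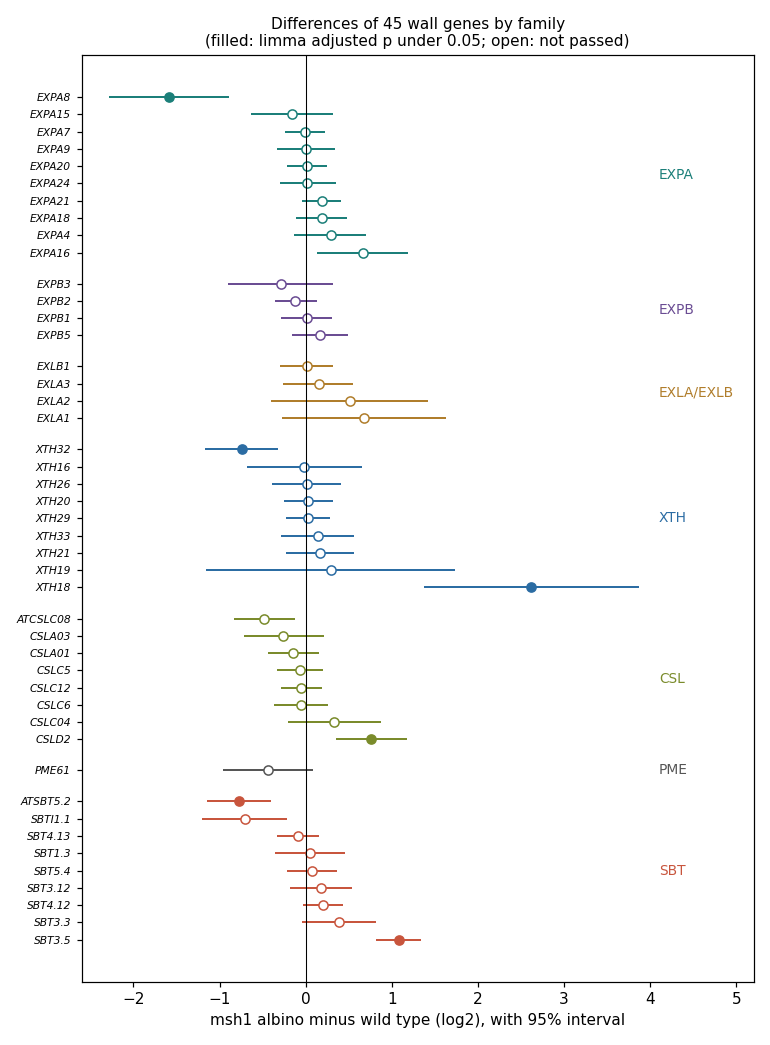
Differences (msh1 albino minus wild type, log2, x axis) of the 45 wall genes, grouped by family on the y axis, with 95% intervals of the limma fit on 3 arrays a group. Filled points passed an adjusted p of 0.05 (XTH18, SBT3.5 and CSLD2 above 0, EXPA8, ATSBT5.2 and XTH32 below), and 31 of the 39 open points lie within 0.3 of 0.

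Among the wall-loosening genes, EXPA8 alone of 10 measured alpha-expansins passed the test, and it fell. EXPA8 (AT2G40610) codes for an alpha-expansin. Its values were 7.27, 6.97 and 6.50 in wild-type replicates 1 to 3 and 5.52, 4.70 and 5.78 in albino replicates 1 to 3. Every albino array lay below every wild-type array, with albino replicate 2 the lowest. The mean went from 6.92 ± 0.39 to 5.33 ± 0.56 (SD, n = 3), a fall of 3.00-fold (limma adjusted p = 0.0154). The call was lost without wild-type replicate 2 (limma adjusted p = 0.0694, difference -1.56).

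The other alpha-expansins had differences from -0.16 to 0.66, none of which passed. EXPA4, the alpha-expansin with the highest mean signal, read 7.18, 7.20 and 6.70 in wild type and 7.25, 7.11 and 7.58 in albino plants, so the groups overlapped (0.29 ± 0.17, limma adjusted p = 0.370). EXPA15 differed by -0.16 ± 0.20, with a 95% interval of -0.62 to 0.31, and EXPA9 and EXPA20 by 0.00 and 0.01. EXPA16 was the widest positive difference of the family, with 4.75, 4.81 and 4.63 in wild type and 5.92, 5.32 and 4.94 in albino plants. Its 3 albino arrays lay above all wild-type arrays, but the difference of 0.66 ± 0.22 did not pass (limma adjusted p = 0.106). It passed in 3 alternatives: with array weights (limma adjusted p = 0.0391), with alignment on the reference genes (0.0393) and without albino replicate 3 (0.0365).

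Alpha-expansins known from root hairs stayed near the low level in these shoots. EXPA7 and EXPA18, which act in root hair growth, read 4.08 to 4.28 and 3.84 to 4.25 over the 6 arrays. XTH26, also known from root hairs, read 3.49 to 4.06. The differences were -0.01 ± 0.09, 0.19 ± 0.12 and 0.01 ± 0.17, and none of the 3 genes passed. EXPA21 and EXPA24, which lie near each other on chromosome 5 with 4 protein-coding genes between them, had group means of 3.52 to 4.01, all at or under the low level. The small difference of EXPA21 (0.19 ± 0.09) separated the groups without overlap but did not pass (limma adjusted p = 0.261). EXPA21 minus EXPA24 within an array changed by 0.17, and the groups overlapped (exact two-sided permutation test, p = 0.4).

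Of the beta-expansins, 4 of the 6 so named in the gene table were measured and 0 passed, with differences from -0.29 to 0.17 and unadjusted p above 0.05 for every gene. EXPB3 had the highest signal and the largest difference of these, with 5.77, 5.86 and 5.34 in wild type and 5.12, 5.01 and 5.96 in albino plants. Albino replicate 3 was the highest of the 6 arrays and the other two albino arrays were the lowest, so the groups overlapped (limma adjusted p = 0.562). EXPB1 and EXPB5 had low means in both groups.

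All 4 expansin-like genes in the gene table were measured, and 0 passed. Their differences ran from 0.01 to 0.68 with a median of 0.33. That median was 0.31 to 0.43 under the 5 other scalings tried, but it rested on single arrays: it was 0.09 without albino replicate 2, 0.65 without albino replicate 1, 0.20 without wild-type replicate 1 and 0.01 with array weights. EXLA1 read 9.27, 8.64 and 9.23 in wild type and 8.92, 10.69 and 9.58 in albino plants. EXLA2, a gene known from responses to a fungal pathogen, read 5.21, 5.72 and 5.81 in wild type and 5.17, 6.87 and 6.24 in albino plants. In both genes albino replicate 2 was the highest array and albino replicate 1 lay within or below the wild-type values. The differences of 0.68 ± 0.41 and 0.51 ± 0.39 had intervals of -0.26 to 1.62 and -0.39 to 1.41 (limma adjusted p = 0.360 and 0.486). EXLA3, which lies next to EXLA1 on chromosome 3, had a low mean in wild type (3.88) and a difference of 0.15 ± 0.17. EXLA3 minus EXLA1 within an array changed by -0.53 between the groups, which overlapped (exact two-sided permutation test, p = 0.5).

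In the xyloglucan enzymes, XTH18 rose and XTH32 fell, and the other 7 of 9 measured genes did not pass. The gene table names 30 XTH genes, so most of the family was not named singly in the annotation and could not be followed here. XTH18 (AT4G30280), known mainly from roots, read 6.45, 5.93 and 5.90 in wild type and 7.52, 9.98 and 8.63 in albino plants. All albino arrays were above all wild-type arrays, and they ranged over 2.46 among themselves. The mean went from 6.09 ± 0.31 to 8.71 ± 1.23 (SD, n = 3), 6.15-fold higher, with a 95% interval of 1.39 to 3.86 for the log2 difference (limma adjusted p = 0.0209). Without albino replicate 2, the highest array, the difference was 1.99 and still passed (limma adjusted p = 0.0127). The call was lost without albino replicate 3 (limma adjusted p = 0.0549), without wild-type replicate 2 (0.0850) or 3 (0.0733), and with an intensity trend and robust prior (0.0651).

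XTH32 (AT2G36870), from the branch of the family that is known for xyloglucan hydrolysis, read 8.22, 8.78 and 8.45 in wild type and 7.63, 7.55 and 8.04 in albino plants. The groups did not overlap, and the mean fell by 0.74 ± 0.18 on the log2 scale, from 8.49 to 7.74 (limma adjusted p = 0.0369). This was the least stable of the 6 calls: it passed in 8 of 19 alternatives, and none of the 5 other scalings kept it (limma adjusted p = 0.0651 to 0.0865). Its difference stayed between -0.89 and -0.60 throughout.

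XTH19 lies next to XTH18 on chromosome 4, with no protein-coding gene between them in the gene table, and its values were not separated between the groups. XTH19, known from dividing and elongating root cells and from the healing of cut stems, read 6.42, 5.42 and 5.63 in wild type and 5.12, 7.69 and 5.51 in albino plants. Albino replicate 2 was the highest and albino replicate 1 the lowest of the 6 arrays, and the difference of 0.29 ± 0.62 did not pass (limma adjusted p = 0.840). Within each array, XTH19 minus XTH18 was -0.03, -0.51 and -0.27 in wild type and -2.40, -2.30 and -3.13 in albino plants. The within-array gap changed by -2.34, and the groups did not overlap (exact two-sided permutation test, p = 0.1, which 6 arrays in 2 groups cannot go below; 0.167 after Benjamini-Hochberg adjustment over the 5 neighbouring pairs compared). Albino replicate 2 was the highest albino array for both genes.

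The other XTH genes had differences from -0.02 to 0.17. XTH16 read 7.58, 6.81 and 7.35 in wild type and 6.78, 7.80 and 7.11 in albino plants, a difference of -0.02 ± 0.28 with an interval of -0.67 to 0.64. XTH33, whose protein is anchored in the plasma membrane, differed by 0.14 ± 0.18. XTH20, XTH21 and XTH26 had low means in both groups, and XTH29, known from cold and drought responses, read 3.94 to 4.19 over the 6 arrays.

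**Figure D2:**
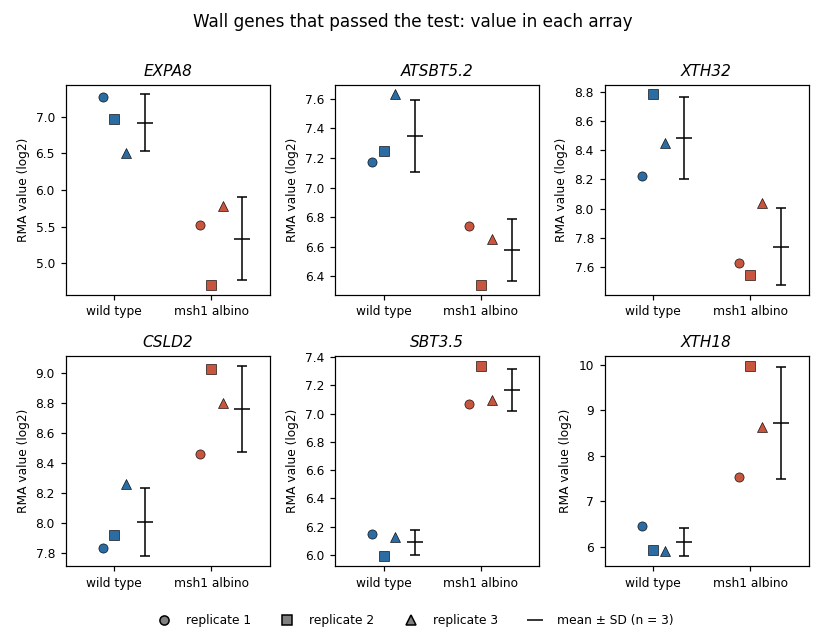
RMA values (log2, y axis) of the 6 wall genes that passed, in each of 3 wild-type and 3 msh1 albino arrays (x axis), with marker shape for the replicate number and bars for the mean ± SD. In each gene the groups do not overlap, and SBT3.5 (5.99 to 6.15 against 7.07 to 7.34) has the narrowest groups relative to its difference.

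Among the glycan synthases CSLD2 rose, and the other 7 of 8 measured genes did not pass. CSLD2 (AT5G16910) belongs to the CSLD group, which is known from tip growth and from cell plates of dividing cells. It read 7.83, 7.92 and 8.26 in wild type and 8.46, 9.03 and 8.80 in albino plants. All albino arrays were above the wild-type arrays, the nearest by 0.21. The mean went from 8.0 ± 0.22 to 8.76 ± 0.28 (SD, n = 3), 1.69-fold higher (limma adjusted p = 0.0293). The call was lost without wild-type replicate 1 (limma adjusted p = 0.0817) or 2 (0.111) and without albino replicate 2 (0.0578) or 3 (0.0782). It was also lost with alignment on the spiked controls (limma adjusted p = 0.103), where the SE was 0.27 instead of 0.17. The difference in these fits was 0.63 to 0.74.

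The CSLC group makes the glucan backbone of xyloglucan, and all 5 of its genes in the gene table were measured. None passed. CSLC04, the member with the highest signal of the CSL genes, read 8.73, 8.39 and 8.66 in wild type and 8.45, 9.41 and 8.92 in albino plants (0.33 ± 0.23, limma adjusted p = 0.433). ATCSLC08 read 5.70, 5.86 and 6.03 in wild type and 5.66, 5.22 and 5.27 in albino plants. It separated the groups by 0.04 only, and its difference of -0.48 ± 0.15 did not pass (limma adjusted p = 0.0765), except without albino replicate 1 (0.0363). CSLC5 and CSLC6 differed by -0.07 ± 0.11 and -0.05 ± 0.13, with intervals of -0.32 to 0.19 and -0.36 to 0.25, and CSLC12 had low means in both groups. The mannan backbone genes CSLA01 and CSLA03 differed by -0.15 ± 0.12 and -0.26 ± 0.20, and neither passed.

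For pectin, PME61 (AT3G59010, also named PME35), the only pectin methylesterase taken by the rule, did not pass. It read 5.11, 5.83 and 5.10 in wild type and 4.81, 4.70 and 5.21 in albino plants, so that albino replicate 3 lay within the wild-type range. The difference was -0.44 ± 0.22, with an interval of -0.95 to 0.07 (limma adjusted p = 0.268).

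In the subtilases, SBT3.5 rose, ATSBT5.2 fell and the other 7 of 9 measured genes did not pass. SBT3.5 (AT1G32940), a protease known to process a pectin methylesterase, read 6.15, 5.99 and 6.13 in wild type and 7.07, 7.34 and 7.10 in albino plants. The lowest albino array was 0.93 above the highest wild-type array. The mean went from 6.09 ± 0.09 to 7.17 ± 0.15 (SD, n = 3), 2.12-fold higher (limma adjusted p = 0.00208). It was the only wall gene called in all 19 alternatives, with differences of 1.00 to 1.19 and a highest limma adjusted p of 0.0173, without wild-type replicate 2.

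ATSBT5.2 (AT1G20160), known for cleaving a peptide signal that restricts stomatal development, read 7.17, 7.25 and 7.63 in wild type and 6.74, 6.34 and 6.65 in albino plants. The groups did not overlap, and the mean fell from 7.35 ± 0.25 to 6.58 ± 0.21 (SD, n = 3), 1.71-fold lower (limma adjusted p = 0.0207). The call was lost without wild-type replicate 2 (limma adjusted p = 0.0663) or 3 (0.0579). It was also lost with alignment on the spiked controls (limma adjusted p = 0.0625), where the difference was -0.80 and the SE 0.27 instead of 0.16. SBTI1.1, the subtilase that releases a phytosulfokine peptide from its precursor, read 5.74, 6.03 and 6.33 in wild type and 5.47, 4.92 and 5.57 in albino plants. It too separated the groups, but its difference of -0.71 ± 0.21 did not pass (limma adjusted p = 0.0680), except with array weights (0.0400).

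SBT3.3, known from immune priming, lies 1 protein-coding gene away from SBT3.5 on chromosome 1. It read 5.39, 5.08 and 4.79 in wild type and 5.32, 5.76 and 5.35 in albino plants, and its difference of 0.39 ± 0.18 did not pass (limma adjusted p = 0.229). SBT3.5 minus SBT3.3 within an array was 0.75 to 1.34 in wild type and 1.59 to 1.75 in albino plants, a change of 0.69 (exact two-sided permutation test, p = 0.1, again the lowest value it can give; 0.167 adjusted over the 5 pairs). SBT4.12 and SBT4.13, which with ATSBT5.2 are known to mature the abscission peptide IDA, lie 3 protein-coding genes apart on chromosome 5. SBT4.12 read 4.02 to 4.16 in wild type and 4.21 to 4.35 in albino plants, a separation without a call (0.20 ± 0.09, limma adjusted p = 0.233), and SBT4.13 had low means in both groups. SBT4.12 minus SBT4.13 within an array changed by 0.29 (exact two-sided permutation test, p = 0.1; 0.167 adjusted over the 5 pairs). SBT1.3, the subtilase with the highest signal, differed by 0.05 ± 0.17, with an interval of -0.35 to 0.45, and SBT5.4 and SBT3.12 by 0.07 and 0.18.

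Over all 45 genes, the 3 arrays of a group lay beyond all 3 of the other in 11 genes (24.4%), where 29.9% of all tested probe sets did so. In 6 of the 11 the albino arrays were above and in 5 below. They were the 6 genes that passed and EXPA16, EXPA21, ATCSLC08, SBTI1.1 and SBT4.12. Of the 10 genes with a mean under 4.01, 0 passed in limma and 0 had an unadjusted p under 0.05, while 0.598% of the low probe sets of the whole array passed.

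Many of the wall genes had wide spreads among the arrays of a group. The SD over 3 arrays had a median of 0.175 in wild type and 0.239 in albino plants over the 45 genes, and of 0.126 and 0.135 over all tested probe sets. In albino plants 14 of the 45 genes had an SD above 0.320, the 90th percentile of all probe sets, and in wild type 12 genes had an SD above the corresponding 0.276. Above both limits were EXLA1, EXLA2, EXPA8, EXPB3, SBTI1.1, XTH16, XTH18 and XTH19. XTH19 had the widest SD in each group, 0.525 in wild type and 1.38 in albino plants.

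Albino replicate 2 was often the array at the end of the range. In 28 of the 45 genes (62.2%) albino replicate 2 was the highest or the lowest of the 6 arrays, where it was so in 40.8% of all probe sets. It was the highest for 13 genes and the lowest for 15. Its correlation with the wild-type arrays, r = 0.969 to 0.975 over all probe sets, was below that of albino replicates 1 and 3 (r = 0.982 to 0.985). Without it, XTH18, SBT3.5, EXPA8 and ATSBT5.2 were called and CSLD2 and XTH32 were not.

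**Figure D3:**
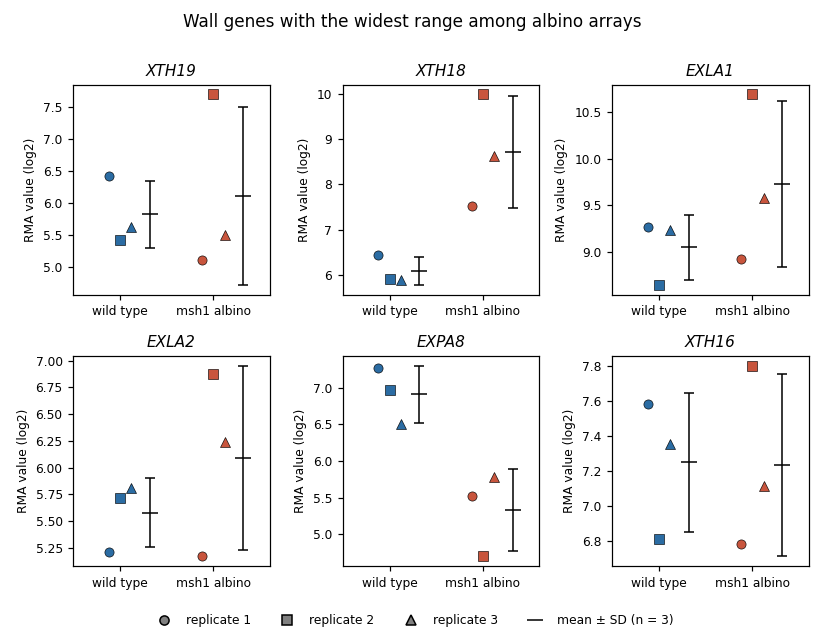
RMA values (log2, y axis) of the 6 wall genes with the widest range among albino arrays, by group (x axis) and replicate (marker shape), with bars for the mean ± SD of 3 arrays. Albino replicate 2 (squares) is the highest albino array in XTH19, XTH18, EXLA1, EXLA2 and XTH16 and the lowest in EXPA8.

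Other genes that make, sense or regulate the wall could be followed only in part. The lists held 63 genes for cellulose synthesis partners, xyloglucan and pectin synthesis, secondary walls, wall integrity, growth control and proton pumps. Of these 7 were measured, 0 rose and 1 fell (median difference 0.00). That 1 gene of 7 was 14.3%, where 11.2% of all tested probe sets were called, and 7 genes are too few to compare the shares. IRX10, which takes part in xylan synthesis, fell from 5.89, 6.15 and 5.93 in wild type to 5.45, 5.35 and 5.71 in albino plants (-0.49 ± 0.13, limma adjusted p = 0.0476). That call was lost under each of the 5 other scalings (limma adjusted p = 0.0736 to 0.471) and without any single array except albino replicate 3 (0.0711 to 0.162). The value of 0.471 came with spiked controls, where the difference was -0.51 and the SE 0.27. The wall integrity receptors FER and THE1 differed by 0.18 ± 0.18 and -0.27 ± 0.20, the peptide ligand RALF33 by 0.06 ± 0.23 and COB, which guides cellulose deposition, by 0.00 ± 0.20, and none of them passed. PGX2, a polygalacturonase, and IAA29, an auxin response repressor, differed by -0.04 and 0.04. PGX2 had low means in both groups (3.54 in wild type and 3.50 in albino plants), and those of IAA29 were little above the low level (4.18 and 4.22).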

How the data were processed

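The authors' deposited values are on the log2 scale, 1 per probe set and array, made with RMA in the affy package per the submitters' processing notes; which versions and settings, and which genome build, is not stated there. Values were used as deposited. After 64 array controls were set aside, 22746 probe sets were tested with lmFit and eBayes of limma 3.58.1 in R 4.3.3 (two-sided, msh1 albino minus wild type, Benjamini-Hochberg over all probe sets, threshold 0.05); at an unadjusted p under 0.05, 5835 passed. The fit was tested on simulated data. Intervals are at 95%.

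The array annotation gave a single gene for 13513 probe sets, several for 503, and left 8730 unnamed here. All 45 wall genes were matched in the TAIR10.1 gene table, which served for names and neighbouring genes only. The members, lists and tests were chosen with earlier results of these data known. The text names every wall gene that passed and, in each family, the gene with the highest mean and with the largest difference; for the other lists, up to 4 passing genes or else the 2 with the largest difference. Other wall genes named were chosen after their values were seen, for their position, their known role or their separation between groups. Same-numbered wild-type and albino arrays did not deviate together (r = 0.00965, -0.342 and -0.0187 for numbers 1 to 3), so arrays were not paired. MSH1 is not reported here. Alternatives were alignment on the 75th percentile, on 7 reference genes or on 18 spiked controls, cyclic loess, quantile normalization again, a minimum mean at the 25th or 50th percentile, a variance prior that is robust and follows intensity, weights for arrays, a replicate block, no probe sets with shared sequence, an adjusted p of 0.01, the mean of a gene's probe sets, and leaving out each array.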

Additional observations from a re-analysis of the deposited data

How the results depend on the processing

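The 6 calls among the wall genes (3 higher, 3 lower) became 3 (1 lower) with alignment on spiked controls and 1 (1 higher, 0 lower) at an adjusted p of 0.01. With 1 array left out they numbered 1 to 6, with 1 to 3 higher and 0 to 3 lower, and a fit on fewer arrays also has less power. Over all probe sets the 2547 calls became 1153 with spiked controls aligned, 689 at an adjusted p of 0.01 and 851 to 2109 with 1 array left out. With the replicate block there were 1485, and the wall genes kept 5 calls, XTH32 being lost (limma adjusted p = 0.0652). Alignment on spiked controls gave every probe set the same SE, 0.27. Of all calls 66.5% were lower as deposited, and 45.7%, 40.3%, 49.6%, 45.4% and 52.2% with the 75th percentile, reference genes or spiked controls aligned, after cyclic loess and after quantile normalization. The median difference of all probe sets was -0.06 to 0.06 over the alternatives that keep every probe set.

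The 1 call in the other wall lists became 0 with the 75th percentile, reference genes or spiked controls aligned, after cyclic loess or quantile normalization, with an intensity trend, above the 50th percentile, with the replicate block and at an adjusted p of 0.01, and was 0 to 1 with 1 array left out. Of the 39 wall genes not called, 3 were called in some alternative (EXPA16, SBTI1.1 and ATCSLC08) and 20 changed sign in some, at no time past the threshold. For these and for family medians near 0, the causes were not tested. With 3 arrays a group, an interval of a difference near 0 still spans the sizes given beside it.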

Other observations

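Pectin methylesterase genes whose symbols fall outside the naming rule were also on the arrays. ATPMEPCRB (AT4G02330) read 5.33, 4.15 and 5.09 in wild type and 6.37, 8.30 and 6.44 in albino plants. All albino arrays were above the wild-type arrays, albino replicate 2 again being the highest, and the mean rose by 2.18 ± 0.53 on the log2 scale, 4.54-fold (limma adjusted p = 0.0376). Without albino replicate 2 it was 1.55 and still passed (limma adjusted p = 0.0253), and the call was lost without albino replicate 3 (0.0513), without wild-type replicate 1 (0.0584), 2 (0.137) or 3 (0.0891), and with an intensity trend (0.0962) or the replicate block (0.0839). ATPMEPCRD (AT2G43050) read 5.69, 6.06 and 6.70 in wild type and 5.06, 5.36 and 5.62 in albino plants, which did not overlap, with a difference of -0.80 ± 0.26 that did not pass (limma adjusted p = 0.0885), except with array weights (0.0336), the replicate block (0.0261), spiked controls aligned (0.0470) or wild-type replicate 1 left out (0.0459). PMEPCRF (AT5G53370) had a mean of 8.66 in each group. A probe set shared by PPME1 and AT5G07410 had low means in both groups and a difference of -0.40 ± 0.18 that did not pass (limma adjusted p = 0.215), except without wild-type replicate 1 (0.0259). These genes were chosen by name after the wall genes had been seen.

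Probe sets that the annotation gives to 2 expansin genes each had little signal, near or under the low level of 4.01. The probe set shared by EXPA25 and EXPA23 read 3.91 to 4.12 over the 6 arrays, and that shared by EXPA22 and a further expansin gene read 3.39 to 3.60, with differences of -0.04 and 0.14, neither of which passed.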
